A study of Caenorhabditis elegans with 2 samples.

Results

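The 3000 intronic regions with the highest chromatin immunoprecipitation (ChIP) signal away from promoters were described among 30000 candidate regions listed for SNAI-1, a protein of the Snail family, in Caenorhabditis elegans late embryos. They were selected on the authors' signal in the list made from both replicates pooled. Of the 30000 summits, the positions of highest signal in each region, 18551 lay in a transcript of a protein-coding gene and 10979 of these in an intron and in no annotated exon. Leaving out summits in promoter windows, which reached 1000 bp before and 200 bp past each protein-coding start, left 8772 regions. Leaving out those within 500 bp of a tRNA, snoRNA or snRNA gene left 8653, and leaving out the stretch from 11750000 to 13500000 of chromosome III left 8066. The 3000 with the highest signal are called members here, and the other 5066 are called weaker intronic regions.

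ChIP followed by sequencing was done on whole mixed-sex late embryos of strain OP698, genotype unc-119(tm4063) III; wgIs698, taken 5 hours after they were synchronized by bleaching of eggs. The animals carry a transgene that makes the snai-1 (K02D7.2) product with a tag at its C-terminus, named GFP-FLAG in one label and eGFP in another, and the precipitation used an antibody against GFP. The series holds 1 group of 2 biological replicates, with no second condition, so every comparison made here is between regions of the same libraries. Both replicates share the transgene and the unc-119 mutation. The labels do not name the sequences that drive the transgene or the cells that make the tagged protein. Read counts are not given, so the depth behind each value is unknown.

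Snail family proteins are zinc-finger transcription factors that bind the E-box CAGGTG, and in vertebrates and Drosophila they are best known for repressing the gene of the adhesion protein E-cadherin during changes of cell shape and movement. Introns can hold enhancers and silencers, the elements through which such factors act at a distance from a start site. Introns of C. elegans also hold many copies of dispersed and simple repeats.

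The summit windows of 4 of the highest members are shown first, and the patterns marked in them are counted over all members further below. Each window is centred on the summit and read 5′ to 3′ on the plus strand of the RefSeq sequence of assembly WBcel235, which has the ce11 coordinates. In the srt-52 window (chrV:53472-53572) the capitals mark TGGC and AGTGG with any 2 bases between them, which resembles the A box inside tRNA genes. In the mdt-26 (chrII:5661873-5661973) and Y57G11C.22 (chrIV:14838320-14838420) windows they mark GTTCGANNC or its reverse complement, which resembles the B box of tRNA genes. In the usp-39 window (chrII:2570624-2570724) they mark TTTGCCG or its reverse complement.
srt-52: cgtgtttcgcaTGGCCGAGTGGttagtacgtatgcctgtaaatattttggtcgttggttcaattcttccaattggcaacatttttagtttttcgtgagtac
mdt-26: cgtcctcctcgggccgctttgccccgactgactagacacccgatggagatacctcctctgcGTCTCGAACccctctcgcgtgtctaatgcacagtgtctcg
Y57G11C.22: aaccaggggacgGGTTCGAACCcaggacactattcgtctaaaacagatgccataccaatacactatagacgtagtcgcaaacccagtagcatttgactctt
usp-39: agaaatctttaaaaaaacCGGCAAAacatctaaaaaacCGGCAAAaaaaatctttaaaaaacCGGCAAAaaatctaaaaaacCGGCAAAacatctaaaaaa

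The next windows hold the unit TTAGGC of the worm telomere repeat or its reverse complement, which is marked in capitals, in the introns of lin-29 (chrII:11923269-11923369), zipt-2.3 (chrII:13715489-13715589) and madd-2 (chrV:1224454-1224554). The gene lin-29 encodes a zinc-finger factor of the larval-to-adult switch, zipt-2.3 a zinc transporter, and madd-2 a protein of the guidance of muscle arms and axons.
lin-29: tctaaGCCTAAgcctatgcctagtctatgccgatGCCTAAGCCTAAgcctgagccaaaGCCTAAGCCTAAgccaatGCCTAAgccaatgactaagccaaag
zipt-2.3: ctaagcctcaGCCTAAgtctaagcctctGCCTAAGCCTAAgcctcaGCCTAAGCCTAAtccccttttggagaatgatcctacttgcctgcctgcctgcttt
madd-2: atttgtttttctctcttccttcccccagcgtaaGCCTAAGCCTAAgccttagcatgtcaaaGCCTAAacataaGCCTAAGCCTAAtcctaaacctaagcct

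Windows with several copies of TTTGCCG, again in capitals on either strand, are shown from the introns of prp-6 (chrV:18029575-18029675), a splicing factor gene, M70.1 (chrIV:2250907-2251007) and twk-45 (chrIII:2801060-2801160), a potassium channel gene.
prp-6: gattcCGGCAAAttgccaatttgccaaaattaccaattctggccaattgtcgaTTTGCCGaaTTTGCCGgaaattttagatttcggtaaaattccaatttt
M70.1: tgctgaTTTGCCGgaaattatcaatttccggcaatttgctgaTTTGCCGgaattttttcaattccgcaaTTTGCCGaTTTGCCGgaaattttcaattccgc
twk-45: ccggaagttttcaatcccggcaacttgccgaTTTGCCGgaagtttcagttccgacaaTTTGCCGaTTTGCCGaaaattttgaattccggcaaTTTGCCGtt

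A run of G and a run of TG repeats were found at 2 more of the 5 highest members. The act-4 window (chrX:4961154-4961254) has the run of G in capitals, and the ast-1 window (chrII:4130402-4130502) has the TG repeat in capitals.
act-4: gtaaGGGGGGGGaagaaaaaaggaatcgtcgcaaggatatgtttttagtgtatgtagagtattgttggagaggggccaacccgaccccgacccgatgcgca
ast-1: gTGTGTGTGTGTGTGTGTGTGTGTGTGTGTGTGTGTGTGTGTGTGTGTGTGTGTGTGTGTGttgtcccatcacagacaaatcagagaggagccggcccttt

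The signal of the members ranged from 48.5 to 215.5 with a median of 58.1, on the authors' scale, which is not stated and is comparable within 1 list only. These values chose the members and are given as a description. In the whole pooled list the members ranked from 120 to 12165, with a median of 6601. Few of them were strong in the authors' own terms. The median −log10 q-value was 0.2, and 68 of the 3000 members (2.27%) had a q-value of at most 0.05, while 897 (29.9%) had one of at most 0.5. The same shares over all 30000 regions were not counted. Members at pooled ranks 756 and 838 had −log10 q-values of 1.35 and 1.21, on either side of a q-value of 0.05. Such q-values were thus few in the whole list too, and their small share is not read as particular to the members. The authors' list of 495 peaks that passed the irreproducible discovery rate (IDR) filter held 23 members, which were the 23 members of highest signal. All 495 of those peaks were the 495 strongest regions of the pooled list, so the filter kept regions in the order of the signal. Only the place of its cut, which rests on the authors' other lists, adds to the signal. The members are therefore the highest intronic candidates and for the most part not significant peaks. At the boundary, the members of position 2998, 2999 and 3000 lay in ZC374.2, xpc-1 and daf-2 with a signal of 48.5 each. The first regions left out lay in wac-1.2 with a signal of 48.5 and in C08E8.2 and lin-14 with 48.4 each. No gap separates the members from the weaker regions.

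Nearly all members met a region of some rank in the replicate lists: 91.6% were overlapped by at least 1 bp in the list of replicate 1 and 87.1% in that of replicate 2, and 1 member in neither. Among the last 1500 these shares were 87.5% and 81.2%, and among the weaker intronic regions 65.2% and 61.5%. High rank in both lists was more frequent toward the top of the set. Of the 100 highest members, 92 (92%, exact 95% binomial interval 84.8 to 96.5) were overlapped by at least 1 bp by a region among the 10000 strongest of each replicate list. The share was 72% (67.3 to 76.3) for the next 400, 31.1% (28.2 to 34.1) for the next 1000 and 8.87% (7.48 to 10.4) for the last 1500. Over all members it was 27.5% (25.9 to 29.1), and over the weaker intronic regions 4.09% (3.56 to 4.67). With the 3000 strongest regions of each replicate in place of 10000, it was 5.27% of the members. The pooled signal was made from both replicates, so these shares describe the selection and do not test it. The intervals cover the counting of regions only, and regions of the same libraries are not independent: 319 members overlapped another member.

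**Figure D1:**
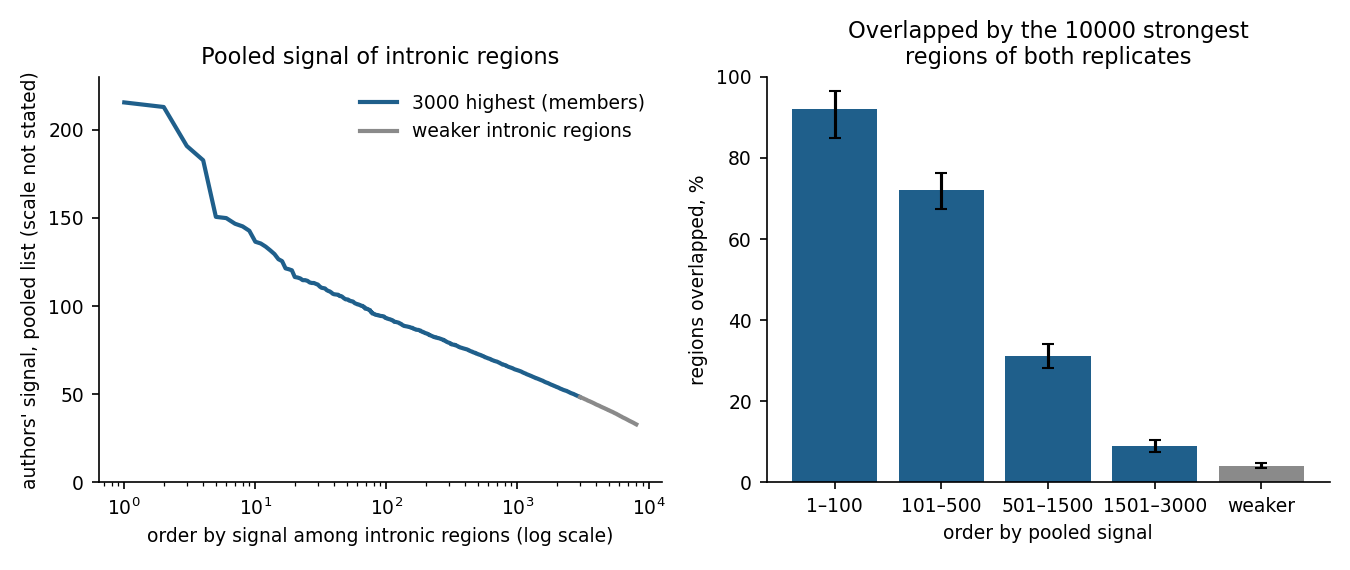
Left, the authors' pooled signal (vertical axis) against the order by signal among the 8066 intronic regions (horizontal axis, log scale), with the 3000 members in blue and the weaker regions in grey. Right, the percentage of regions overlapped by the 10000 strongest regions of both replicates, by order of pooled signal, with exact 95% binomial intervals; it runs from 92% for the 100 highest members to 8.87% for the last 1500.

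The highest member lay in intron 2 of srt-52, a gene of a chemoreceptor class, at V:53522, with a pooled signal of 215.5. Its strongest overlapping region had a signal of 112.8 and rank 121 in the list of replicate 1, and a signal of 105.1 and rank 122 in that of replicate 2. The second lay in mdt-26, which encodes a subunit of the Mediator complex, at II:5661923, with a pooled signal of 212.9 and ranks of 206 and 89. Both replicates thus placed these regions among their 206 strongest.

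The member in intron 8 of usp-39, a gene of the ubiquitin-specific protease family, had a pooled signal of 190.8 and ranks of 164 and 176 in replicates 1 and 2. The member in intron 5 of ast-1, an ETS-domain transcription factor gene of axon steering and dopaminergic neuron fate, had 182.7 and ranks of 128 and 278. The member in intron 1 of the actin gene act-4 had 150.6 and ranks of 540 and 168. Purine synthesis gene pfas-1 followed with 149.9, suro-1 with 146.7, the ABC transporter gene hmt-1 with 145.2 and Y57G11C.22 with 142.7. Of these 9 members, 8 ranked within 500 in both lists, the exception being act-4 in replicate 1.

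The replicates differed more further down. The member in intron 1 of kin-20, which encodes a casein kinase 1 protein, had a pooled signal of 136.5 but ranks of 168 and 1456. The member in the chaperonin gene cct-5 had 120.9 and ranks of 1722 and 387, and that in sma-9, a Schnurri homologue of transforming growth factor β-like signalling, had 116.5 and ranks of 430 and 1764. Those in mig-1, a Frizzled-type Wnt receptor gene, and vab-1, the Eph receptor gene, had 135.5 and 133.7. The remaining genes among the 20 highest were pqn-84, ugt-50, C02B10.3, saeg-1, sam-10 and grsp-1, with pooled signals from 120.3 to 131.6.

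**Figure D2:**
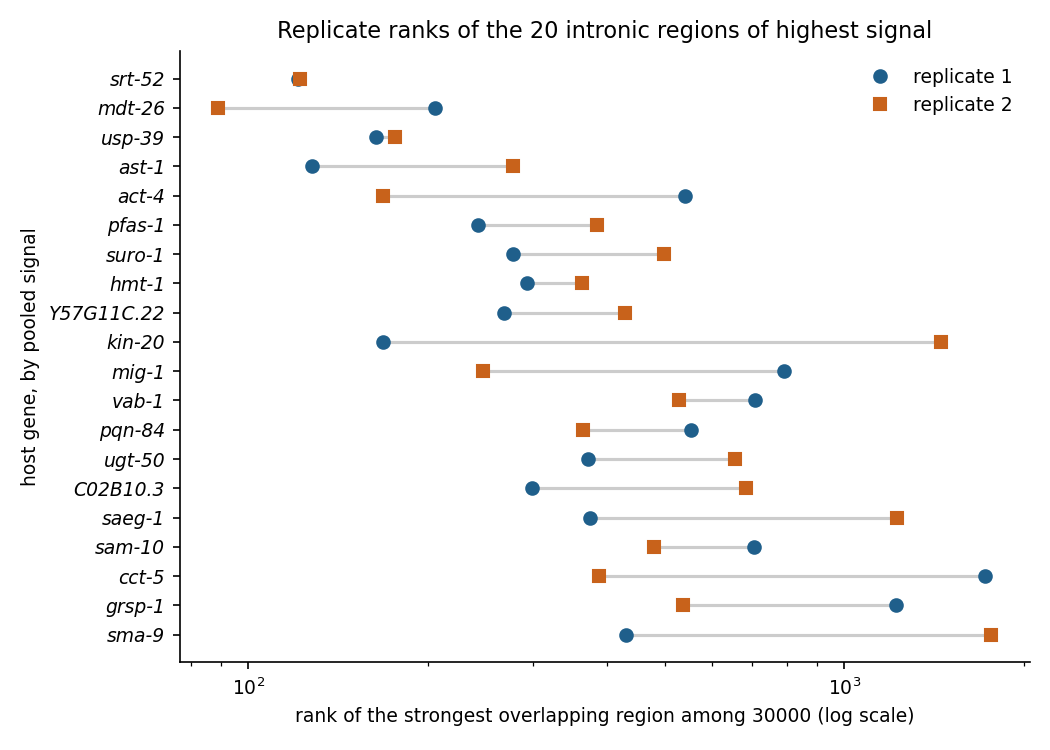
Rank (horizontal axis, log scale) of the strongest region of replicate 1 (circles) and replicate 2 (squares) that overlaps each of the 20 members of highest pooled signal, named by host gene (vertical axis). The ranks lie close together for srt-52 (121 and 122) and far apart for kin-20 (168 and 1456).

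The position of members within genes was close to that of weaker regions. The median distance to the nearest protein-coding start was 1758.5 bp and the median distance to the nearest exon 264 bp, against 1731 bp and 250 bp for the weaker regions. The introns that held them had a median length of 1053.5 bp, against 1020 bp. A first intron of some transcript held 1002 of the 3000 members (33.4%, interval 31.7 to 35.1) and 1538 of the 5066 weaker regions (30.4%, 29.1 to 31.6), beside 28.9% of all eligible intronic bases. The difference passed Fisher's exact test (two-sided, odds ratio 1.15, adjusted exact p = 0.00782 over 5 shares). It did not pass with the list of replicate 2 alone (odds ratio 1.01, adjusted exact p = 0.901), nor with 1 region per host gene (1.1, adjusted exact p = 0.219). Introns of 2000 bp or longer held 31.5% of members (29.9 to 33.2) and 28.8% of weaker regions (27.6 to 30.1), with an odds ratio of 1.14 (adjusted exact p = 0.0128). With 1 region per host gene this odds ratio was 1.07 (adjusted exact p = 0.349).

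Members were concentrated on the autosome arms, the outer parts when each chromosome is cut into 3 equal parts, which in this species are richer in repeats and poorer in conserved genes than the centres. The arms held 2291 of 2654 autosomal members (86.3%, 85 to 87.6) and 3647 of 4456 weaker regions (81.8%, 80.7 to 83), beside 72.8% of eligible autosomal intron. Fisher's exact test gave an odds ratio of 1.4 (two-sided, adjusted exact p = 3.51e-06), and the odds ratio lay between 1.28 and 1.51 in every alternative run. Per 100 kb of eligible intron, members numbered 19.5 in the left arm of chromosome III and 7.1 in its centre. Chromosome I had 14.3, 7.46 and 17.4 in its left arm, centre and right arm. Chromosome IV had 13 in its left arm but 6.46 in its right, near the 4.74 of its centre.

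Chromosome X held 346 members (11.5%, 10.4 to 12.7), or 7.82 per 100 kb of eligible intron against 11.7 over all chromosomes. The X share did not differ detectably from the 12% (11.2 to 13) of the weaker regions (odds ratio 0.952, adjusted exact p = 0.521). In the list of replicate 1 alone it did (odds ratio 0.843, adjusted exact p = 0.0202). X holds 17.2% of eligible intronic bases, so both members and weaker regions were below that share.

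**Figure D3:**
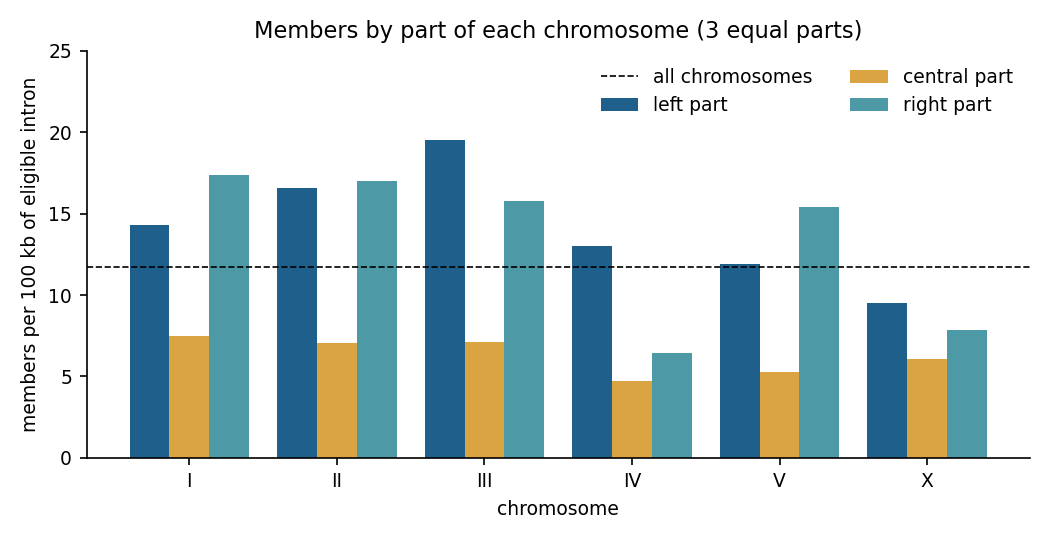
Members per 100 kb of eligible intron (vertical axis) in the left, central and right part of each chromosome cut into 3 equal parts (horizontal axis); the dashed line is the value over all chromosomes, 11.7. On each autosome the centre lies below both outer parts.

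Summits on bases that the reference marks as repeat made up 50.7% of members (1520 of 3000, 48.9 to 52.5) and 55.6% of weaker regions (2817 of 5066, 54.2 to 57), beside 52.1% of eligible bases. The odds ratio was 0.82 (Fisher's exact test, two-sided, adjusted exact p = 4.33e-05). Among the 100 highest members the share was 37% (27.6 to 47.2), and it was 52.7% (50.1 to 55.2) among the last 1500. The GC content of the summit window had a median of 37.6% in members and 34.7% in weaker regions, beside 36.6% in the windows 400 bp to either side of member summits.

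The members lay in introns of 1972 protein-coding genes, which are 49% of the 4026 genes with at least 1 intronic candidate region. A single member was found in 1420 of them, and 68 held 5 or more. The gene with most members was hmr-1, which encodes the C. elegans cadherin of adherens junctions, the counterpart of E-cadherin. It held 23 members and 13 weaker regions in 44647 eligible intronic bases. The next were frl-1 with 13, ZK131.11 with 12, the spectraplakin gene vab-10 with 11, and pqn-41, Y48C3A.5, C14B4.2 and gcn-1 with 10 each. Long introns alone give more room: among the 328 genes with at least 10000 eligible bases, hmr-1 was in position 9 by members per 10 kb, at 5.15. The median of these genes was 0.988, the upper quartile 2.34 and the highest 6.51, in lin-42, the Period homologue of developmental timing.

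The hmr-1 members lay in 21 separate stretches of chromosome I between 11079736 and 11131752. Their signal ran from 50.1 to 100.7 with a median of 64.6, and none was in the IDR list. The longest intron, of 18310 bp, held 10 of them, and a first intron of 5253 bp held 5. The highest was at I:11097261, with ranks of 613 and 1286 in the lists of replicates 1 and 2. The next, centred at I:11092363, had a signal of 97.7 and ranks of 1444 and 1141. Of the 23, 10 (43.5%) were overlapped by the 10000 strongest regions of both replicates. These 10 are not all separate. The members at I:11097261 and I:11097490 met the same replicate regions, and so did those at I:11096051 and I:11095769. CAGGTG was present in 1 of the 23 summit windows and any E-box of the form CANNTG in 8.

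The other genes looked up for their tie to Snail or to this strain had little eligible intron, from 362 bases in egl-1 to 3101 in unc-119. Over all introns there were 1.17 members per 10 kb, so the counts in these genes are not read as low or high. The snai-1 gene itself held 1 member, with a signal of 55.1 at order 1864, which ranked 3535 in replicate 1 and was overlapped by no region of replicate 2. The unc-119 gene, mutated in this strain, held 1 with a signal of 54.7. The Snail family genes ces-1 and scrt-1 held none, scrt-1 having 2 weaker regions of at most 37.8. The cell death gene egl-1, a target of CES-1 in C. elegans, had no intronic candidate region. The bHLH gene hlh-2, the E-protein of the worm, held 1 weaker region with a signal of 47.7.

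Host genes were read in 13 lists of gene classes, chosen with earlier results of these data known. Each list's share of genes with a candidate region that held a member is set beside the 49% (47.4 to 50.5) of all such genes, with no test. Of the 34 genes of axon guidance and adhesion with a candidate, 27 held a member (79.4%, interval 62.1 to 91.3). They were led by vab-1 with 133.7, hmr-1 with 100.7, the semaphorin gene smp-1 with 91 and the netrin receptor gene unc-40 with 89.9. These genes also had more room, with a median of 6389.5 eligible bases each against 2360 over all genes with a candidate, and 2.85 members per 10 kb against 1.97. Of the 90 members in this list, 23 were in hmr-1. Collagen and bHLH genes had more per 10 kb, at 6.76 and 3.49, as did the only ribosomal protein gene with a candidate. These densities count only genes that already hold a candidate, which raises them where introns are short, as in collagen genes (median 755 eligible bases). Over all introns there were 1.17 members per 10 kb. The part of intron length in the share of axon guidance and adhesion genes was not tested. In the lists of replicates 1 and 2 taken alone, the share was 66.7% (22 of 33) and 85.7% (30 of 35), beside 48.6% and 48.4% of all genes with a candidate.

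Muscle structure genes held a member in 10 of 16, among them the tropomyosin gene lev-11 with 78.2. Synapse and ion channel genes did so in 13 of 22, with the synaptic scaffold gene unc-10 at 94.3 and the ERG-type potassium channel gene unc-103 at 87. The twk potassium channels did so in 9 of 17, with twk-45 at 93.1. The intervals of these last 3 lists all include 49%.

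Among regulators of transcription, nuclear hormone receptors held a member in 38 of 60 genes (63.3%, 49.9 to 75.4), led by nhr-230 with 114.7 and nhr-65 with 95.1. In the lists of replicates 1 and 2 taken alone, 33 of 72 (45.8%) and 24 of 69 (34.8%) did so, beside 48.6% and 48.4% of all genes with a candidate there, so their position above all genes was not seen in either replicate. Homeobox genes did so in 12 of 26 (46.2%), bHLH genes in 2 of 5, the muscle factor hlh-1 and the autophagy regulator hlh-30, and other embryonic fate factors in 8 of 18 (44.4%). The latter were led by the GATA factor genes egl-18 with 114.7 and elt-6 with 110.2, and by lin-14 with 90.6. Wnt and Notch signalling genes held one in 6 of 11 (54.5%), with mig-1 at 135.5 and the Frizzled gene lin-17 at 84.2.

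Collagen genes held a member in 8 of 15, led by col-71 with 112.2, and in 9 of 10 and 9 of 16 with the lists of replicates 1 and 2 alone. Chemoreceptor genes held one in 47 of 152 (30.9%, 23.7 to 38.9), led by srt-52 and by srw-84 with 108.6. In replicates 1 and 2 alone the chemoreceptor share was 40.4% and 35%. This list had a median of 1006.5 eligible bases per gene with a candidate. In those genes members numbered 2.69 per 10 kb of eligible intron, against 1.97 over all genes with a candidate. Only genes that already hold a candidate enter this density, here 152 of 1145 annotated chemoreceptor genes, which raises it where introns are short. It therefore does not show whether members were fewer per length. No chromatin regulator did so among 9 with a candidate, which allows a share of up to 33.6% (exact interval). In replicates 1 and 2 alone, 3 of 11 and 1 of 10 did. The only ribosomal protein gene with a candidate, rps-27, held 1 member with a signal of 54.3.

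**Figure D4:**
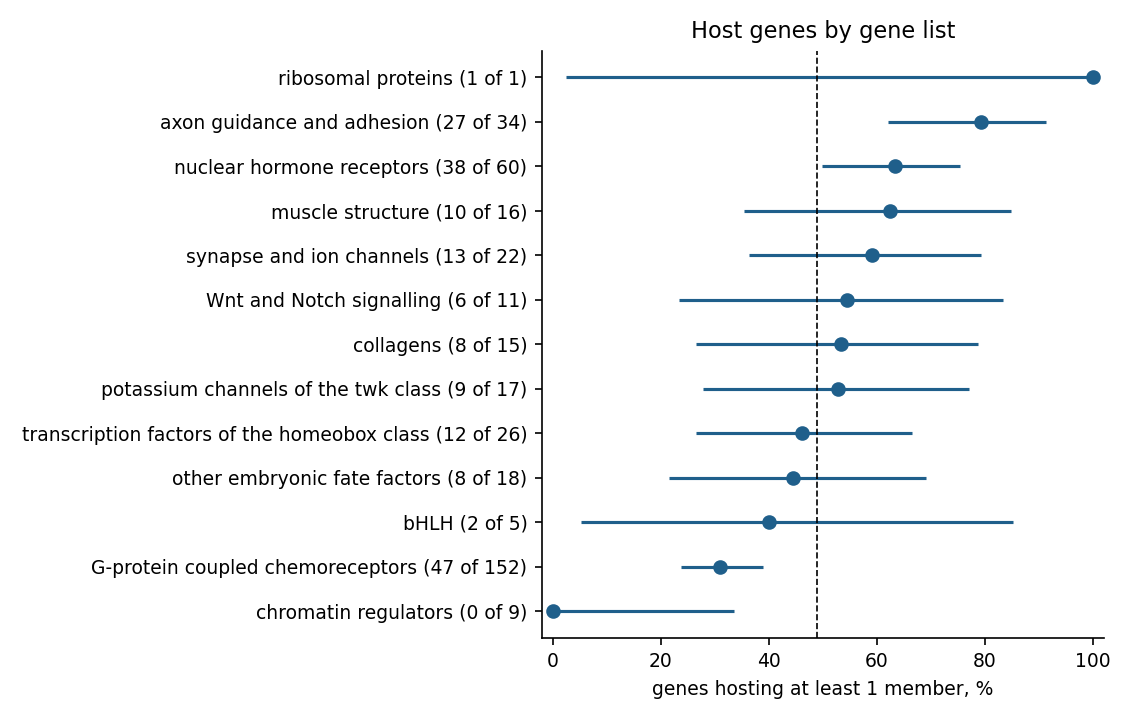
Percentage of genes with an intronic candidate region that held at least 1 member (horizontal axis), for 13 gene lists (vertical axis, with counts), as points with exact 95% binomial intervals. The dashed line is the 49% of all such genes; axon guidance and adhesion lies above it at 79.4% and chemoreceptors below at 30.9%.

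The E-box of the Snail family was not more frequent at member summits than beside them. CAGGTG (merged with CACCTG) was present in 55 of the 3000 summit windows (1.83%, interval 1.38 to 2.38) and in 1.86% of the windows of weaker regions (Fisher's exact test, two-sided, adjusted exact p = 1). In the flank windows, of the same size and centred 400 bp away on 1 side drawn at random, it was present in 2.83% (exact McNemar test, two-sided, adjusted exact p = 0.0221 over 10 E-box classes). None of the 10 classes was higher at summits, with 0 also at an unadjusted p under 0.05, and 7 were lower. CAACTG was at 2.97% against 4.5% in the flanks (adjusted exact p = 0.00558), and CACGTG at 1.47% against 2.73% (adjusted exact p = 0.00558).

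The members' summits were chosen to lie outside exons, and their flanks were not. Of the 3000 drawn flank windows, 1279 touched an exon or left the transcript, as did 427 summit windows. In the 2059 members with a summit window and a flank window wholly in introns, CAGGTG stood at 1.7% at the summit and 1.65% in the flank (adjusted exact p = 1 over 10 classes). There, no class was higher or lower at the summit after adjustment, and CAATTG alone had an unadjusted p under 0.05 (4.32% against 2.82%, adjusted exact p = 0.0903). CAGATG was level, at 2.09% and 2.04%. Other classes had values still below those of the flanks without passing, with CATATG at 0.68% against 1.26%, CACGTG at 1.17% against 1.8%, CAAATG at 5.29% against 6.8%, CAACTG at 2.87% against 3.55% and CAAGTG at 2.48% against 2.91%. For CAGGTG and CAGATG the flank shares were 2.83% and 3.63% in the full comparison and 1.65% and 2.04% here. Their summit and flank shares were thus close once both windows were intronic. For the classes still below the flanks, the 2059 members are fewer than the 3000 of the full comparison, so a lost call does not show that a difference is absent. This comparison was added after the data were seen.

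Over all hexamers, each merged with its reverse complement, 188 (9.04%) were more frequent at summits than in the flanks and 261 (12.5%) less frequent (exact McNemar test, two-sided, adjusted exact p under 0.05). The hexamers that were higher had a median GC content of 66.7%, and those that were lower 33.3%. Summit and flank windows were not matched on GC content, so the part of base composition in these counts was not tested. With intronic windows only, 96 were higher and 75 lower, and 64 of the 96 were also among the 188. In the 120 members whose windows hold no base marked as repeat, none passed, with 33 higher and 51 lower at an unadjusted p under 0.05. The ratio of summit to flank share there was 4.5 for GGCAAA, 2.5 for AGCCTA, 1.83 for GCCTAA and 1 for CCGGCA. Over all members it was 1.64, 2.1, 2.17 and 1.77. With so few regions the lost calls do not show that the differences are absent, and the ratios do not show that they remain. The hexamers with the smallest p belong to 2 repeats. GGCAAA, a part of TTTGCCG, was present in 16.1% of summit windows and 9.8% of flank windows (adjusted exact p = 2.61e-12), and in 18% against 13.1% with intronic windows only (adjusted exact p = 6.11e-05). GCCTAA, the reverse complement of TTAGGC, was present in 8.7% against 4% (adjusted exact p = 2.16e-11), and in 7.33% against 5% with intronic windows only (adjusted exact p = 0.0237).

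All 6 hexamers that a telomere repeat array contains were higher at member summits than in the flanks and than in weaker regions. Against intronic flanks all 6 passed as well. The 6 are overlapping frames of the same repeat, so an array holds them together and their calls are not separate results. GGCTTA was at 5.53% against 2.2% in the flanks (adjusted exact p = 2.09e-09) and 3.43% in weaker regions (adjusted exact p = 0.000713). CTAAGC was at 4.23% against 1.37% (adjusted exact p = 2.79e-09) and 2.49% (adjusted exact p = 0.00152). CGGCAA, of the TTTGCCG repeat, was at 11.7% against 7.1% (adjusted exact p = 2.09e-09) and 9.51% (adjusted exact p = 0.0339). On the low side, ATCATC was at 2.67% against 6% in the flanks (adjusted exact p = 5.47e-08), CAACTC at 2.53% against 5.03% (adjusted exact p = 3.41e-05), AGTTGA at 4.63% against 7.77% (adjusted exact p = 3.94e-05), ATGTAA at 2.8% against 5.33% (adjusted exact p = 4.88e-05) and TCATCA at 4.07% against 6.93% (adjusted exact p = 7.35e-05). Against intronic flanks ATGTAA passed, at 2.77% against 4.86% (adjusted exact p = 0.0137). The others did not, with ATCATC at 2.62% against 3.59% (adjusted exact p = 0.274), CAACTC at 2.67% against 3.16% (0.678), AGTTGA at 4.66% against 6.75% (0.0531) and TCATCA at 4.23% against 5.25% (0.374).

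Members were also set beside the weaker intronic regions, which passed the same positional rule. Of all hexamers, 97 (4.66%) were more frequent in members and 68 (3.27%) less frequent (Fisher's exact test, two-sided, adjusted exact p under 0.05). AGCCTA led, at 7.2% against 4.24% (adjusted exact p = 9.65e-06), followed by GGCCTA at 6.17% against 3.57% (adjusted exact p = 2.55e-05), GCCTAA at 8.7% against 5.61% (adjusted exact p = 2.85e-05) and CCGGCA at 8.9% against 5.84% (adjusted exact p = 5.16e-05). Among those that were lower, AAAAAT was at 53.6% against 61.1% (adjusted exact p = 7.71e-08) and AAAAAA at 46% against 53.4% (adjusted exact p = 1.03e-07). In 2926 members and 2926 weaker regions matched on GC content of the window, only 3 hexamers were higher and 2 lower. AGCCTA and GCCTAA were at 1.51 and 1.46 times the share of weaker regions (adjusted exact p = 0.0478 each), while CCGGCA and GGCAAA did not pass (adjusted exact p = 0.592 and 0.624). The ratio of GGCAAA was 1.17 after matching and 1.2 before, and that of CCGGCA 1.28 and 1.52. With the wider promoter windows, of 2000 bp upstream and 500 bp downstream, AGCCTA did not pass (ratio 1.43, adjusted exact p = 0.0546). With the list of replicate 2 alone GCCTAA did not pass (ratio 1.26, adjusted exact p = 0.116), and with that of replicate 1 it did (1.37, adjusted exact p = 0.00899).

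Longer patterns, counted after these results were seen and given without a test, followed the same lines. A run of 2 copies of TTAGGC, on either strand, was present in 52 members (1.73%, 1.3 to 2.27), in 0.367% and 0.333% of their left and right flanks, in 0.671% of weaker regions and in 0.342% of 254187 windows that tile the eligible introns. In the 3000 highest regions between genes the run was present in 1.13% (0.786 to 1.58). The 52 members with it lay in 50 host genes. All 49 on the autosomes were on arms, beside 86.3% of all autosomal members. Of the 52, 42 (80.8%) had a summit marked as repeat, beside 50.7% of all members. The signal of the 52 had a median of 63.8, against 58.1 for members without the run. The run was present in 3.33% of the 300 highest members (1.61 to 6.04). The highest value was 103.7, in Y51H7C.10 at order 51, so the very strongest members did not hold it.

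TTTGCCG, on either strand, was present in 278 members (9.27%, 8.25 to 10.4), 4.87% and 4.47% of the flanks, 7.17% of weaker regions and 3.62% of the tiled windows. Of the autosomal members with it, 256 of 265 (96.6%) lay on arms, beside 86.3% of all autosomal members. Of all members with it, 83.1% had a summit marked as repeat, beside 50.7% of all members. The members with TTTGCCG were led by usp-39 with 190.8, mig-1 with 135.5 and vab-1 with 133.7. A run of 6 G was present in 97 members (3.23%, 2.63 to 3.93), in 1.86% of weaker regions and in 1.02% of the tiled windows, and in 9 of the 100 highest members (9%, 4.2 to 16.4), with act-4 in front.

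**Figure D5:**
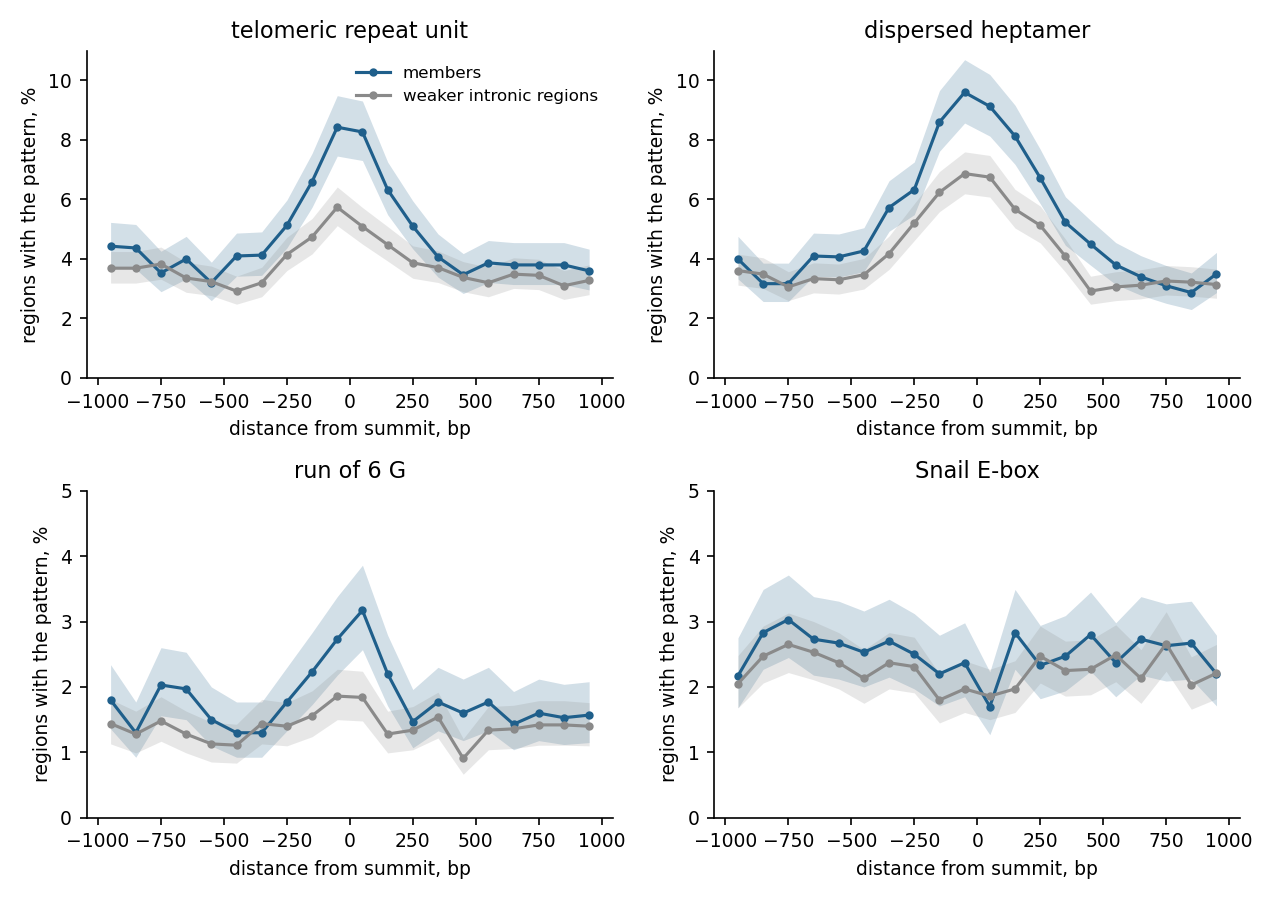
Percentage of regions with each pattern on either strand (vertical axis) in bins of 100 bp by distance from the summit (horizontal axis), for members (blue) and weaker intronic regions (grey), with exact 95% binomial intervals as bands. The telomeric repeat unit (TTAGGC), the dispersed heptamer (TTTGCCG) and the run of 6 G are highest next to the summit, and the Snail E-box (CAGGTG) shows no such maximum.

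Runs of 8 copies of CA on either strand were rare, in 14 members (0.467%, 0.255 to 0.782), 0.158% of weaker regions (0.0682 to 0.311) and 0.0614% of the tiled windows. They were not particular to introns, with 0.467% in the 3000 highest promoter regions and 0.6% in the 3000 highest regions between genes. Of the 14 members, 3 were among the 10 highest, in ast-1, pfas-1 and kin-20. The B-box-like GTTCGANNC was present in 26 members (0.867%, 0.567 to 1.27) and 0.829% (0.598 to 1.12) of weaker regions, and the A-box-like pattern of the srt-52 window in 8 (0.267%) and 0.257%. These 2 patterns therefore mark a few of the highest members, mdt-26, Y57G11C.22 and srt-52, and were not more frequent in members than in weaker regions beyond the intervals. No annotated tRNA gene lay within 500 bp of any of these summits, by the rule.

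A gene that the annotation classes as ncRNA lay within 100 bp of 91 member summits (3.03%, 2.45 to 3.71), of 83 weaker summits (1.64%, 1.31 to 2.03) and of 1.24% of eligible intronic bases. Among the highest members, the summits in kin-20 and C02B10.3 lay 16 and 13 bp from such a gene. This comparison was not tested.

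Other kinds of region from the same pooled list were used to see where intronic members stand: the 3000 highest regions in promoters, and the 3000 highest between genes and away from promoters. The median signal was 63.3 in promoters, 58.1 in members and 54.1 between genes. The IDR list held 157 of the promoter regions, 23 of the members and 25 of the intergenic regions. Against intergenic regions, 75 hexamers (3.61%) were higher in members and 110 (5.29%) lower. Against promoter regions, 158 (7.6%) were higher and 320 (15.4%) lower (Fisher's exact test, two-sided, adjusted exact p under 0.05). The median GC content was 37.6% in members, 38.6% between genes and 39.6% in promoters. These sets were not matched on it, so the part of base composition in these counts was not tested. GCCTAA stood at 8.7% in members, 5.27% between genes (adjusted exact p = 2.73e-05) and 4.27% in promoters (adjusted exact p = 5.41e-10). GGCAAA stood at 16.1%, 13.2% (adjusted exact p = 0.0255) and 9.07% (adjusted exact p = 6.99e-14). CAGGTG stood at 1.83% in members and 2.77% in each of the other sets (adjusted exact p = 0.131 and 0.0751), and runs of 6 G were lower in members than between genes, at 3.23% against 4.87% (adjusted exact p = 0.0267).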

How the data were processed

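ChIP-seq regions of 2 biological replicates were analysed from lists on build ce11. Per the deposited manifests, the list of a replicate rests on its own alignment beside a control, the pooled list on those of both, and the IDR list on the other lists. Which caller, aligner and IDR threshold were used is not given in the sources used here. No control library was analysed here. The signal per region, the −log10 q-value and the summit offset, which counts from 0, are the authors' deposited values. Each candidate list held 30000 regions. All members were 456 bp wide. Depth is unknown, so no floor or interval on reads is given.

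Summits were placed on the Ensembl release 115 annotation of WBcel235, counting exons of any gene and starts of all protein-coding transcripts. Sequence and repeat marks were the RefSeq soft-masked genome of the same assembly. Windows were as long as those printed. Regions were the units of every test, so p-values cover the counting of regions within these libraries. Shares were compared by Fisher's exact test and adjusted (Benjamini-Hochberg) over 5 shares. Hexamers were adjusted over all hexamers, and E-box classes over 10. The flank side was drawn with a fixed seed. Intervals are exact (Clopper-Pearson). Host genes named are those of the 20 highest members, those with most members, up to 4 per list, and 7 genes tied to Snail. Members, lists and named genes were chosen with earlier results of these data known. The windows printed, the longer patterns, the regions near ncRNA genes, the intergenic and promoter sets and the intronic flanks were chosen after seeing the data. One further gene list is not reported here. The hexamer tests were tested on simulated windows. Python 3.11.15, numpy 2.4.6, scipy 1.17.1 and pandas 2.3.3 were used.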

Additional observations from a re-analysis of the deposited data

How the results depend on the processing

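The share of members on autosome arms and that of repeat-marked summits kept their direction and side of the threshold in every alternative run. With 1 region per host gene, the odds ratios for first and long introns were 1.1 and 1.07 and no longer passed. Leaving out each replicate gave odds ratios of 1.01 to 1.11 for first introns, which did not pass without replicate 1, and of 0.843 to 0.899 for X, which passed without replicate 2. It also gave 2.31% to 3.03% of hexamers higher and 1.63% to 2.74% lower than in weaker regions, 6.92% to 7.12% lower than in flanks, and 3 to 4 E-box classes lower. The shares of hexamers higher and lower than in weaker regions were 1.39% and 1.15% with promoter windows of 2000 bp upstream and 500 bp downstream, 1.15% and 1.73% with 1 region per host gene, and 0.144% and 0.0962% after matching on GC content. Against flanks they were 4.62% and 5% for the 1500 highest members, 3.8% and 3.12% in windows of 51 bp, 0% and 0% in the 120 members with no repeat-marked base, and 4.62% and 3.61% in intronic windows, a setting chosen after seeing the data. The widest windows gave 19.4% lower. E-box classes lower at summits numbered 0 for the 1500 highest members, 1 in windows of 51 bp, 1 without repeat-marked bases and 0 in intronic windows. The share overlapped in both replicates was 46.1% for the 1500 highest members, 21.8% with the wider promoter windows, 5.27% with the 3000 strongest regions per replicate and 23.5% with a stricter overlap rule. The cause was not tested, except that the smaller sets hold fewer regions. No paired analysis was possible because the series has 1 group. Depth is unknown, so no limit from depth can be given.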
